A study of Homo sapiens with 32 samples.

Results

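The activating and repressive forms of a Modifier of ARE Containing Chromatin (MACC) were compared directly in LNCaP cells, both under tamoxifen. The comparison took every library labelled with either line and tamoxifen, 4 activating and 4 repressive libraries of 32 in the series. LNCaP is a human prostate cancer line that was grown from a lymph node metastasis and depends on androgen, and the lines of all 32 libraries derive from it. Each MACC joins a DNA binding domain that recognizes androgen response elements (AREs) to ERT2, a mutant estrogen receptor ligand binding domain, and carries a FLAG tag. The activating form adds VP64, the repressive form adds KRAB, and the neutral form, used here as a reference for direction, has no effector. The cells were transduced with lentivirus, selected and kept in blasticidin, and given 2.5 µM tamoxifen or ethanol vehicle for 48 h. Each form is represented by 1 line, so the line and its construct cannot be told apart except against the vehicle libraries of the same lines. The replicates are labelled biological, and the p-values measure the spread between them.

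Androgen response elements are inverted repeats of a short hexamer through which androgen controls transcription, and closely related response elements serve other steroid hormones. In the luminal cells of the prostate androgen drives secretory genes such as KLK3, which encodes prostate-specific antigen. KRAB is the silencing domain of zinc finger proteins and recruits co-repressors that deposit repressive histone marks, whereas VP64 is a tandem repeat of a viral activation domain that recruits the transcription machinery. The comparison thus asks which transcripts separate when opposite effectors are brought to the same DNA binding specificity in the same cell line.

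The line labels were checked on the genes that supply construct sequence. ZNF10, the zinc finger gene from which KRAB domains of this kind are taken, had 0, 0, 1 and 0 counts in the activating libraries and 17, 14, 16 and 11 in the repressive libraries. All 4 repressive libraries were therefore above all 4 activating libraries, 41.2-fold in summed normalized counts (95% exact interval 7.1 to 1653, covering counting error only). ESR1, which includes the ERT2 sequence, was higher in the activating line by 0.50 on the log2 scale (SE 0.132, adjusted p = 0.00242 from edgeR). On unscaled library totals the ESR1 difference was 0.13 and was not called. A normalized count is edgeR's CPM after scaling by the trimmed mean of M values (TMM) over all libraries, and is not divided by gene length, so it compares libraries and not genes.

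Activating libraries held 600900 to 698334 counts and repressive libraries 565168 to 791496. All 9 LNCaP identity genes had counts in these libraries, but several were low. TMPRSS2 had 1 to 3 counts in both groups, and KLK2 had 4 to 11 in the activating and 2 to 10 in the repressive libraries. FOXA1 had 6 to 10 and 13 to 19, whereas KRT8 had 4080 to 5848 and 645 to 908. The presence of counts is thus a weak check of identity. Of 16 markers of fibroblasts, endothelium and blood cells 13 were at 0 in all 8 libraries, while CD68 had 9 to 18 and 4 to 8 counts. With an identity gene such as TMPRSS2 at 1 to 3 counts, counts of 0 are a weak check of absence too. The summed level of those 16 was 18.3 to 34.6 normalized counts in the activating and 8.77 to 12.7 in the repressive libraries, mostly CD68, which rose by 1.44 (adjusted p = 0.00163 from edgeR). In bulk RNA, fewer cells of a kind and less RNA per cell cannot be told apart. Genes with at least 1 count numbered 9688 ± 331 in the activating and 10962 ± 584 in the repressive libraries (SD, n = 4; exact permutation p = 0.0286, two-sided, the smallest that 70 labellings give, adjusted p = 0.0572 over 4 library properties).

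Of the counts assigned to annotated genes, 80.9% fell on genes whose exons overlap exons of the opposite strand. GAPDH had a mean of 53.6 counts and RP5-940J5.9, annotated opposite it, 14947. Reads of an abundant transcript may therefore sit in the gene annotated on the other strand, and the strand setting of the counting was not given in the sources used here. For many of the genes below the neighbour is given too, and which of both strands the reads came from was not tested.

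With edgeR's quasi-likelihood test, 1901 of 3983 genes (47.7%) passed an adjusted p of 0.05 between the induced lines, 1001 (25.1%) higher in the activating and 900 (22.6%) lower. Among the called genes the median size of the difference was 1.09 on the log2 scale, 1071 differed more than 2-fold, 528 of them higher (13.3% of all tested) and 543 lower (13.6%), and 367 differed more than 4-fold. The libraries of both lines did not overlap for 1716 genes (43.1%), with the activating line higher for 899 (22.6%) and lower for 817 (20.5%). Genes with no opposite-strand exon, fitted alone, gave 228 higher (22%) and 200 lower (19.3%) of 1038. The direction of the split rested on the scaling. On library totals without TMM the median gene moved by -0.36, and 593 genes were higher and 1472 lower.

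**Figure D1:**
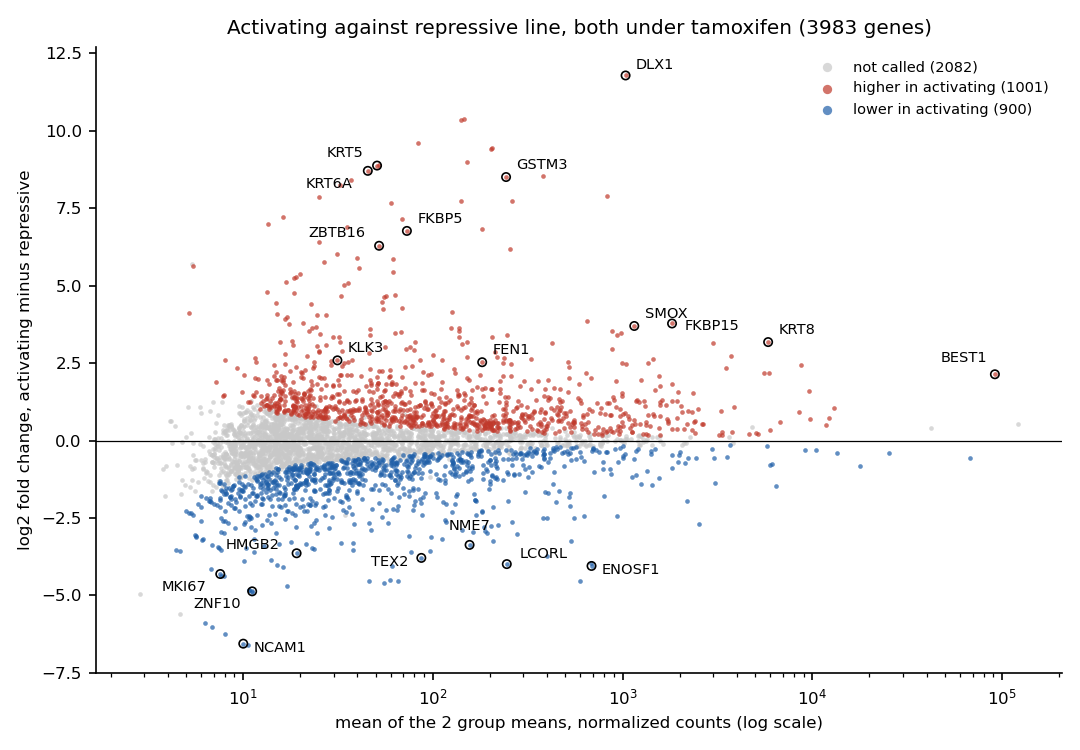
Each point is 1 of the 3983 tested genes, with the mean of both groups' normalized counts on a log scale on the horizontal axis and the fitted log2 fold change, activating minus repressive, on the vertical axis. Red marks the 1001 genes called higher in the activating line and blue the 900 called lower. DLX1, GSTM3, FKBP5, KRT5, KRT6A and ZBTB16 were at or near 0 counts in the repressive line, and the text gives their ratios or bounds in place of the fitted value.

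The same lines under vehicle differed in 1 of 3980 genes (0.0251%), ZNF10 itself, with 169 genes at an unadjusted p under 0.05. DESeq2 also called 1. The difference between lines under tamoxifen exceeded that under vehicle, or fell below it, for 1430 of 3985 genes (35.9%, 722 or 18.1% higher and 708 or 17.8% lower) in the interaction of line and treatment, which uses the same induced libraries. On library totals this split was 454 higher and 1100 lower.

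FKBP5, KLK3, KRT8 and NME7 show how the lines separated. FKBP5 (chr6:35541362-35696360, GRCh37), an HSP90 co-chaperone and a classic target of androgens and glucocorticoids, had 79, 59, 60 and 79 counts in the activating libraries and 1, 1, 1 and 0 in the repressive libraries. Every activating library lay far above every repressive one, with a ratio of 130 (95% exact interval 44.1 to 635, adjusted p = 3.43e-16 from edgeR). Its normalized count was 145 ± 17.4 (SD, n = 4) in the activating line, 1.14 ± 0.79 in the repressive line and 7.08 ± 5.84 in the neutral line under tamoxifen, while the activating and repressive lines under vehicle stood at 10.7 and 8.68.

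KLK3 (chr19:51358171-51364020), which encodes prostate-specific antigen, had normalized counts of 51.0, 63.2, 46.2 and 55.7 in the activating libraries and 12.8, 9.07, 8.88 and 4.38 in the repressive libraries. The groups did not overlap, and the difference was 2.59 on the log2 scale (SE 0.304, adjusted p = 3e-08 from edgeR). Most of this distance lay on the repressive side. The neutral line stood at 39.7 ± 6.02 (SD, n = 4), with a difference of 0.44 to the activating line that was not called (adjusted p = 0.103 from edgeR), whereas the repressive line stood at -2.13 to it (adjusted p = 0.000218 from edgeR).

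KRT8 (chr12:53290971-53343738), the type II keratin of luminal epithelium, had 9673, 11923, 9931 and 10624 normalized counts in the activating libraries and 1042, 1170, 1114 and 1327 in the repressive libraries. The difference was 3.18 (SE 0.081, adjusted p = 4.92e-20 from edgeR), with no overlap. Here the distance lay on the activating side, since the neutral line, at 1330 ± 210 (SD, n = 4), did not differ from the repressive line in the test (-0.19, adjusted p = 0.556 from edgeR). KRT18, the partner keratin of KRT8, is annotated on the opposite strand with overlapping exons and was higher by 1.85 (adjusted p = 1.19e-07 from edgeR).

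NME7 (chr1:169101769-169337186), a member of the nucleoside diphosphate kinase family found with the gamma-tubulin ring complex, went the other way. Its normalized counts were 16.3, 36.7, 36.5 and 21.1 in the activating libraries and 288, 319, 256 and 275 in the repressive libraries. All repressive libraries were higher, and activating minus repressive was -3.37 on the log2 scale (SE 0.181, adjusted p = 1.14e-15 from edgeR). The neutral line lay between at 114 ± 10.5 (SD, n = 4), and both lines departed from it, the activating line by -2.06 (adjusted p = 1.14e-07 from edgeR) and the repressive line by 1.33 (adjusted p = 2.91e-07 from edgeR). ATP1B1, opposite NME7, was at -0.48 and not called.

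**Figure D2:**
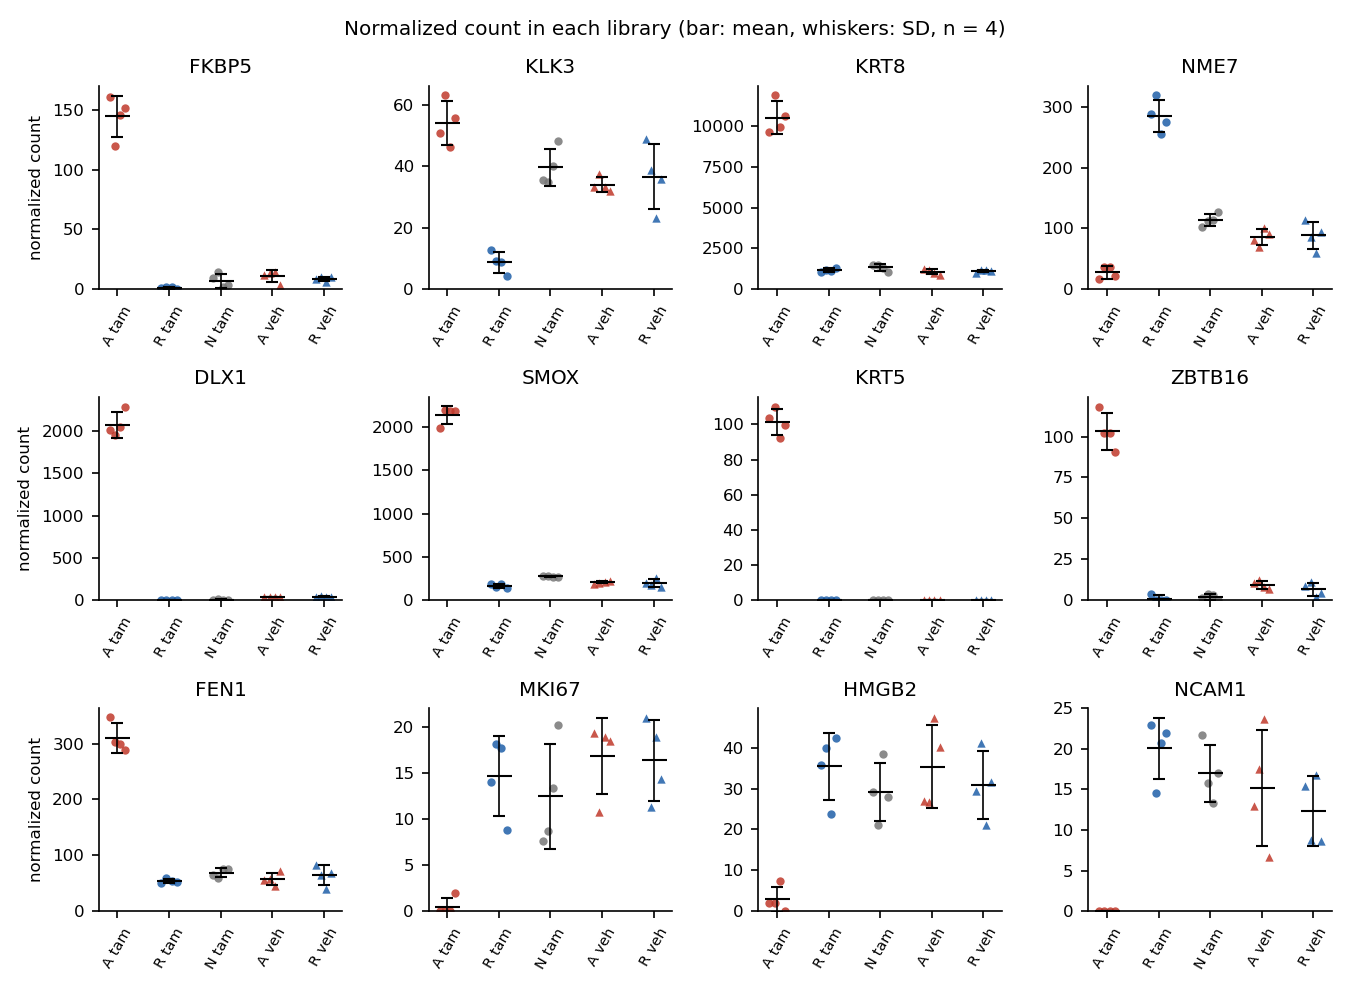
Normalized count (vertical axis, linear) of 12 genes in each library of the activating (A), repressive (R) and neutral (N) lines under tamoxifen (tam, circles) and of the activating and repressive lines under vehicle (veh, triangles), with the mean and SD of 4 libraries as bar and whiskers. FKBP5, KRT8, DLX1, SMOX, KRT5, ZBTB16 and FEN1 stood above the other groups in the activating line alone, KLK3 was low in the repressive line alone, NME7 was low in the activating and high in the repressive line, and MKI67, HMGB2 and NCAM1 were near or at 0 in the activating line.

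Since the MACC is built to bind AREs, the ARE consensus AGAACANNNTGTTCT, a palindrome read here on both strands with N for any base, was searched near these genes. Sequences are shown for KLK3 and NME7, described above, and for 3 higher and 2 lower genes with a match near the start, examples chosen after their values were seen, in lower case with the 15-base match in capitals, on the strand of the stated coordinates. The KLK3 sequence is from the RefSeq promoters of GRCh38.p14 and starts 190 bases before the transcription start, with 2 mismatches in its match. The others are from GRCh37 with 1 mismatch each, lie upstream of SMOX and KRT6A by 4679 and 1372 bases, upstream of PLEKHG3 by 7469 bases, upstream of the lower genes ATF4 and FN1 by 186 and 1537 bases, and inside NME7 at 18995 bases from its start.
KLK3, chr19:50854725-50854779 (GRCh38.p14, plus strand): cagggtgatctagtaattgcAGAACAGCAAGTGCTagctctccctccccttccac
SMOX, chr20:4096921-4096975 (GRCh37, plus strand): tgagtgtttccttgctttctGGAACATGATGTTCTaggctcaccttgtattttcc
KRT6A, chr12:52888386-52888440 (GRCh37, plus strand): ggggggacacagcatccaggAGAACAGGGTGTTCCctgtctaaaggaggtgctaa
PLEKHG3, chr14:65163324-65163378 (GRCh37, plus strand): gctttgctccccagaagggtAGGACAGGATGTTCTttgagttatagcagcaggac
NME7, chr1:169318164-169318218 (GRCh37, plus strand): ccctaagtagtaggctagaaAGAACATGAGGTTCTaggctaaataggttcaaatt
ATF4, chr22:39915487-39915541 (GRCh37, plus strand): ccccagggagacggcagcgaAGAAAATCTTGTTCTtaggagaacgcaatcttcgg
FN1, chr2:216302306-216302360 (GRCh37, plus strand): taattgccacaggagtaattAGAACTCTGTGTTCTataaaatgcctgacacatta

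Of 35116 RefSeq promoters of 300 bases, 495 (1.41%) held a match with at most 2 mismatches, as did 3 of the 101 promoters that the table gives for 64 of the named genes. A match with at most 1 mismatch was sought within 50 kb of the annotated start, with mitochondrial genes left out. It was present for 30.2% of the 885 other tested genes annotated without an opposite-strand exon. By call it was present for 34.2% of the 187 higher in the activating line, 32.2% of the 214 lower and 27.7% of the 484 not called. Among the genes that differed more than 4-fold it was present for 43.1% of 65 higher and 31.7% of 60 lower. Within 5 kb the shares were 4.28% of the higher, 4.21% of the lower and 2.07% of the genes not called, and 6.15% of the 65 and 5.0% of the 60. For the 2936 genes with an opposite-strand exon, the shares within 50 kb were 32.2% of the higher, 31.9% of the lower and 30.7% of the genes not called, and 30.3% of 119 higher and 29.8% of 114 lower by more than 4-fold. Within 5 kb they were 3.01%, 3.25% and 2.69%, and 0.84% of the 119 and 5.26% of the 114. FKBP5 and DLX1 had no match of this kind within 50 kb, which says nothing about binding of the MACC there.

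Among the largest differences were transcripts present in the activating line and at or near 0 counts in the repressive line. DLX1 (chr2:172949468-172954405), a homeobox transcription factor, had 987, 956, 840 and 1192 counts in the activating libraries and 0, 0, 1 and 0 in the repressive libraries, a ratio of 5602 (95% exact interval 1005 to 221334). The neutral libraries under tamoxifen had 1 to 5 counts, whereas under vehicle its normalized count was 36.6 in the activating and 39.2 in the repressive line. GSTM3, a mu-class glutathione S-transferase, had 206 to 260 counts against 0 to 1, a ratio of 435 (95% exact interval 148 to 2113), and RP4-735C1.4 on its opposite strand was also higher, by 3.87 (adjusted p = 1.28e-23 from edgeR). PLEKHG3, a guanine nucleotide exchange factor, had 215 to 296 counts against 0 to 3, a ratio of 234 (95% exact interval 107 to 640), and SPTB, opposite it, was higher by 1.50.

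In all, 30 genes had at most 3 counts in every repressive library and at least 20 in every activating library, and 3 genes showed the reverse. TRIM35 and SLC36A4, an amino acid transporter, were at 0 in all 4 repressive libraries and at least 251-fold and 151-fold higher in the activating line, taking 3 counts over the group as the floor. KRT5 had 51, 54, 38 and 52 counts in the activating libraries, and KRT6A had 45, 26, 44 and 58. Both were at 0 in the repressive, the neutral tamoxifen and both vehicle groups, so that KRT5 was at least 91.6-fold and KRT6A at least 81.3-fold higher in the activating than in the repressive line. KRT5 is the keratin of basal epithelium and KRT6A a keratin of stressed and regenerating epithelium, and they lie next to each other in the type II keratin cluster with no opposite-strand exon. KRT6A has close copies in KRT6B and KRT6C, so that its counts may be shared with them. The 3 genes in the other direction were TMPO, which encodes a nuclear lamina protein and lies opposite TMPO-AS1, at -2.23 (ratio 23.7 in favour of the repressive line, 95% exact interval 12.3 to 52.2), SGOL1-AS1 (25.3, 12.7 to 59.1) and CTD-2510F5.4 (11.6, 5.43 to 29.4).

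SMOX, the spermine oxidase of polyamine breakdown, was measured well in both lines. It had 1987, 2204, 2186 and 2187 normalized counts in the activating libraries and 181, 150, 185 and 140 in the repressive libraries. The difference was 3.70 (SE 0.087, adjusted p = 7.26e-24 from edgeR). FKBP15, annotated opposite the copper transporter SLC31A2, was higher by 3.78 (adjusted p = 4.58e-25 from edgeR), and SPIDR, a scaffold protein of DNA repair, by 6.18 (adjusted p = 6.94e-22 from edgeR). RP5-1120P11.1 was low in the repressive line, so the size of its fitted difference is uncertain. It was higher by 7.91 (adjusted p = 9.4e-24 from edgeR), with 1444 to 1891 normalized counts in the activating line, 3.83 to 11.8 in the repressive line and a mean of 231 in the neutral line.

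BEST1, chosen after its values were seen, took 10.8 to 11.8% of all counts in the activating libraries and 3.05 to 3.49% in the repressive libraries. Its exons overlap those of FTH1, the ferritin heavy chain that stores iron, on the opposite strand. BEST1 was higher by 2.14 (adjusted p = 6.55e-23 from edgeR) and FTH1 itself by 1.63 (adjusted p = 0.000836 from edgeR), the former with means of 149525 and 33904 normalized counts. In the other groups of the series BEST1 took 2.27 to 3.57% of the counts, so that the activating tamoxifen libraries stood apart from all others.

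Among the named genes with the largest differences in the other direction, ENOSF1, opposite the thymidylate synthase gene TYMS, had 61.1 to 92.5 normalized counts in the activating and 1184 to 1464 in the repressive libraries, a difference of -4.05 (adjusted p = 6.55e-23 from edgeR). ITFG2, opposite FOXM1, a transcription factor of mitotic genes, was at -3.94, LCORL, opposite the condensin subunit gene NCAPG, at -3.99, and DNAH11, opposite CDCA7L, at -3.74, where edgeR gave adjusted p-values of 5.22e-23, 1.23e-18 and 1.06e-21. NCAPG was itself lower (-0.78, adjusted p = 0.00123 from edgeR), whereas TYMS (-0.73, adjusted p = 0.0843 from edgeR) and FOXM1 (-0.17, adjusted p = 0.813 from edgeR) were not called. TYMS passed when activating replicate 1 was left out, at -1.01, and FOXM1, with few counts, was slightly above 0 without activating replicate 1 or 4 or repressive replicate 4 (0.04, 0.07 and 0.07).

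Of the genes without an opposite-strand exon, TEX2 had 12.2, 12.2, 12.2 and 9.61 normalized counts in the activating libraries against 161, 165, 138 and 186 in the repressive libraries (-3.79, adjusted p = 8.85e-15 from edgeR). DDX11, a helicase of sister chromatid cohesion, was at -3.08 on the log2 scale, PTMS (parathymosin) at -2.97, ANAPC2, a subunit of the anaphase-promoting complex, at -2.75, PRMT6, an arginine methyltransferase, at -2.63 and DEK, a chromatin protein, at -2.24, all of them called. H2AFY, which encodes the histone variant macroH2A1 and lies opposite C5orf66 (-0.57), had 41.4 to 84.5 normalized counts in the activating and 438 to 543 in the repressive libraries (-3.01, adjusted p = 7.95e-17 from edgeR).

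The neutral line under tamoxifen shows on which side each gene moved. It is compared with both lines, so the following differences share the neutral libraries and are set side by side only. Against it, 1685 of 3984 genes (42.3%) were called in the activating line, 856 (21.5%) higher and 829 (20.8%) lower (507 and 1271 on library totals), and 132 of 3978 (3.32%) in the repressive line, 51 (1.28%) higher and 81 (2.04%) lower. Neutral replicate 1 had 1164808 counts and 63.2% of them on genes with an opposite-strand exon. Without it the counts of called genes were 1603 and 138.

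DLX1, GSTM3, PLEKHG3, SPIDR, FKBP15, KRT8 and ZBTB16 were called in the activating line and not in the repressive line, for example PLEKHG3 at 7.40 and -0.34 and FKBP15 at 4.01 and 0.25. SMOX was called in both, at 2.95 (adjusted p = 1.88e-18 from edgeR) and -0.72 (adjusted p = 0.000284 from edgeR), and RP5-1120P11.1 likewise at 2.83 and -5.06. These genes thus lay above the neutral line in the activating cells and below it in the repressive cells. The opposite arrangement held for H2AFY, at -2.07 and 0.97 (adjusted p = 1.18e-09 and 2.18e-06 from edgeR), TEX2 at -3.15 and 0.66, ITFG2 at -3.65 and 0.32, DNAH11 at -3.37 and 0.39 and NCAPD2 at -1.97 and 0.46, all called in both. BX842568.2 was below the neutral line in both, at -4.93 and -0.85.

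**Figure D3:**
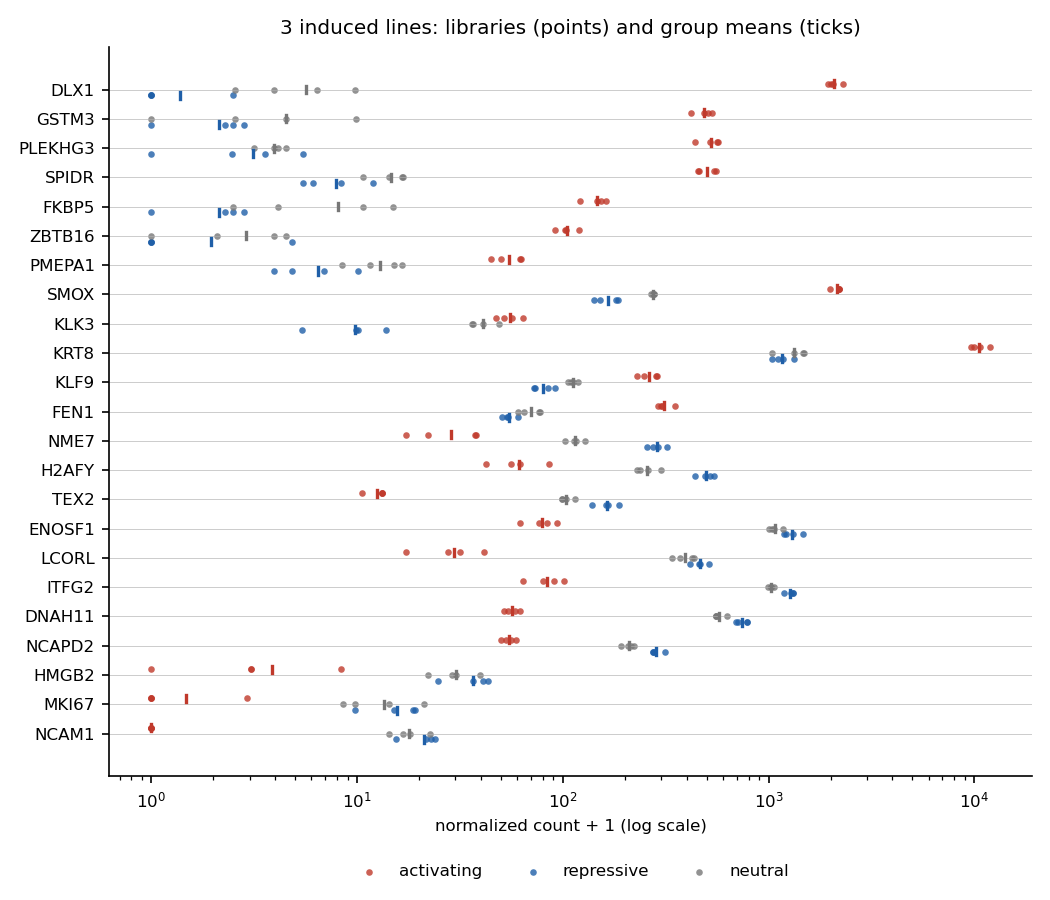
Normalized count plus 1 (horizontal log axis) of 23 named genes in the activating (red), repressive (blue) and neutral (grey) lines under tamoxifen, 1 point per library and a tick for the mean of 4. For most genes the neutral libraries lie close to the repressive ones, KLK3 is the gene whose neutral libraries lie close to the activating ones, and NME7, SMOX and H2AFY have the neutral libraries between both lines.

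Groups of genes were read from lists, each described by its called members and its median beside the 25.1% higher, 22.6% lower and median of -0.04 over all tested genes. Of 66 androgen response genes, 27 were tested, 16 were higher, 3 lower and 8 not called, with a median of 0.78. KLK3, FKBP5 and KRT8 were given above. FKBP5, near 0 in the repressive line, passed the filter mainly through the group where it is high, so its call is no support for the list. Mean counts were also low for PMEPA1 (3.5) and STK39 (2.25) in the repressive line and for SCD (1.25) in the activating line. Also higher were PMEPA1, a negative regulator of TGF-beta signalling (3.33, adjusted p = 1.67e-09 from edgeR), STK39, a kinase of ion transport (3.23), SORD, the sorbitol dehydrogenase (1.48), and NCOA4, the ferritin receptor of autophagy (0.56). The 3 lower members were SCD, the stearoyl-CoA desaturase (-2.68, adjusted p = 0.000267 from edgeR), the protease ADAMTS1 (-1.21) and the lipid phosphatase PLPP1 (-0.68). The kallikreins KLK2 (0.67) and KLK4 (0.15), the transporter SLC45A3 (-0.69) and FOLH1, the prostate-specific membrane antigen (-0.53), were not called. STK39, SORD, NCOA4, SCD, ADAMTS1, PLPP1 and these 4 were chosen after their values were seen. On library totals the list gave 12 higher and 4 lower.

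The neighbours annotated opposite androgen response genes were tested for 14 members, and 12 were higher and 0 lower, with a median of 1.88 (edgeR, the other 2 above 0 and not called). As background for all neighbours of listed genes, 764 of the 2936 tested genes with an opposite-strand exon were higher and 646 lower. SKIV2L2, opposite PLPP1, was at 2.73 while PLPP1 was at -0.68. RP11-66B24.4, opposite the retinal dehydrogenase ALDH1A3, was at 2.34, RP11-109D20.2, opposite SORD, at 2.19, RP11-326A19.5, opposite the lipase ABHD2, at 1.59 and AC003991.3, opposite the metalloreductase STEAP4, had 26 to 34 counts against 0 to 2. AC003991.3 had at most 1 count in the neutral tamoxifen libraries. It may have passed the filter mainly through the activating libraries, so its direction is no support for the list. These neighbours were chosen after their values were seen.

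Of 22 targets of glucocorticoid-type response elements, which resemble AREs, 4 passed the filter and were called higher. ZBTB16 and FKBP5, near 0 in the repressive line, passed it mainly through the group where they are high, so this count is no support for the list. ZBTB16, the transcriptional repressor PLZF, had 58, 50, 42 and 47 counts in the activating libraries and 3, 0, 0 and 0 in the repressive libraries, a ratio of 92.5 (95% exact interval 31.2 to 453). KLF9, a zinc finger transcription factor, was higher by 1.72 (adjusted p = 5.83e-12 from edgeR) with no overlap, 228 to 284 against 71.4 to 90.7 normalized counts. CEBPB was higher by 0.86 (adjusted p = 0.0302 from edgeR) with overlapping groups, and was not called without activating replicate 1 or repressive replicate 2 or 3 (0.55, 0.78 and 0.84). FKBP5 was the fourth.

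Of 54 genes of G2 and M phase, 8 were tested, 5 were lower and none higher, with a median of -2.60 (edgeR, the 3 not called were between -0.87 and -0.04). MKI67, HMGB2, TACC3 and TMPO had mean counts of 0.25, 1.25, 1.0 and 2.25 in the activating line. They passed the filter mainly through groups where they are high, so this count is no support for the list. NCAPD2 alone of the lower members had more, with mean counts of 25.5 in the activating and 191 in the repressive line. MKI67, the proliferation antigen, had 0, 0, 0 and 1 counts in the activating and 11, 10, 12 and 6 in the repressive libraries, a ratio of 27.7 in favour of the repressive line (95% exact interval 4.68 to 1121). HMGB2, a chromatin protein of dividing cells, had 1, 1, 3 and 0 against 28, 22, 16 and 29 counts, a ratio of 13.5 (5.58 to 42.5), and NCAPD2, a condensin subunit opposite MRPL51 (-0.70), was at -2.40 (adjusted p = 7.3e-15 from edgeR). Of the 9 tested neighbours of this list 6 were lower and 1 higher, with a median of -2.23. TRIM59, opposite the condensin gene SMC4, was at -2.45. RP11-80G7.1, GNB3 and FAM53C had 0.48, 2.01 and 2.94 normalized counts in the activating line. They may have passed the filter mainly through other groups, so their direction is no support for the list. TRIM59 and these neighbours were named after their values were seen.

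Of 43 S phase genes, 6 were tested, 1 was higher, 1 lower and 4 not called, with a median of -0.61. The higher member was FEN1 (chr11:61560383-61564710), the flap endonuclease of DNA replication, with 348, 304, 299 and 288 normalized counts against 49.8, 59.9, 53.3 and 52.6. It was the exception in this list, at 2.53 (SE 0.136, adjusted p = 1.1e-15 from edgeR), with the neutral line at 68.8 and both vehicle groups at 57.6 and 64.1. The lower member, CCNE2, a cyclin of S phase entry, was at -0.62 with overlapping groups (adjusted p = 0.0492 from edgeR), and was not called without activating replicate 1, 2 or 3 or repressive replicate 2 or 3 (-0.57, -0.53, -0.57, -0.50 and -0.55). All 6 tested neighbours of S phase genes were lower, with a median of -2.50, ENOSF1 at -4.05, PRIMPOL opposite CENPU at -3.31 and INTS8 opposite CCNE2 at -2.51. PRIMPOL was named after its value was seen.

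Markers of epithelial lineage did not move as a block. Of 24 luminal genes, 12 were tested, 4 were higher (KRT8, KRT18 and KLK3 among them), 1 lower and 7 not called, with a median of 0.28. The lower member was HOXB13, a homeobox factor of prostate identity, at -1.09 (adjusted p = 9.68e-05 from edgeR), with 28.5 to 41.4 against 61.7 to 82.9 normalized counts. Of 24 basal genes only KRT5 and KRT6A passed the filter. They passed through the activating libraries alone, so their direction was fixed by the filter. Of 20 neuroendocrine genes only NCAM1, a neural adhesion molecule, passed. It had 0 counts in all activating libraries and 18, 8, 14 and 15 in the repressive libraries, at least 13.0-fold lower in the activating line. NCAM1 passed through groups other than the activating tamoxifen libraries, so its direction was fixed by the filter. Of 20 genes of epithelial-mesenchymal transition, 4 were tested, with TAGLN, an actin-binding protein opposite PCSK7 (1.01), higher (1.33, adjusted p = 0.00489 from edgeR) and FN1, fibronectin, lower (-1.24, adjusted p = 0.00288 from edgeR) with overlapping groups. The neighbours of VIM and ACTA2, VIM-AS1 at 2.32 and ACTA2-AS1 at 2.04, were higher and were named after their values were seen.

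The mitochondrial genome encodes subunits of the respiratory chain. All 13 of its protein-coding genes were tested, 11 were higher in the activating line and 0 lower, with a median of 1.09 (edgeR; MT-ND1 at -0.16 and MT-CYB at 0.19 were not called). On library totals 8 were higher and 1 lower. MT-ND3 had 106, 83.6, 127 and 96.1 normalized counts in the activating and 35.7, 23.6, 28.1 and 46.8 in the repressive libraries, a difference of 1.59 (adjusted p = 3.39e-07 from edgeR). Under vehicle, however, it stood at 127 in the activating and 137 in the repressive line, so that among these groups the induced repressive line was the low one. Mitochondrial genes took 1.27 ± 0.045% of all counts in the activating and 0.901 ± 0.125% in the repressive libraries (SD, n = 4, exact permutation p = 0.0286, adjusted p = 0.0572), without overlap. Low shares were not particular to the induced repressive line. The neutral libraries held 0.825 to 1.289% under tamoxifen and 0.857 to 1.036% under vehicle.

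**Figure D4:**
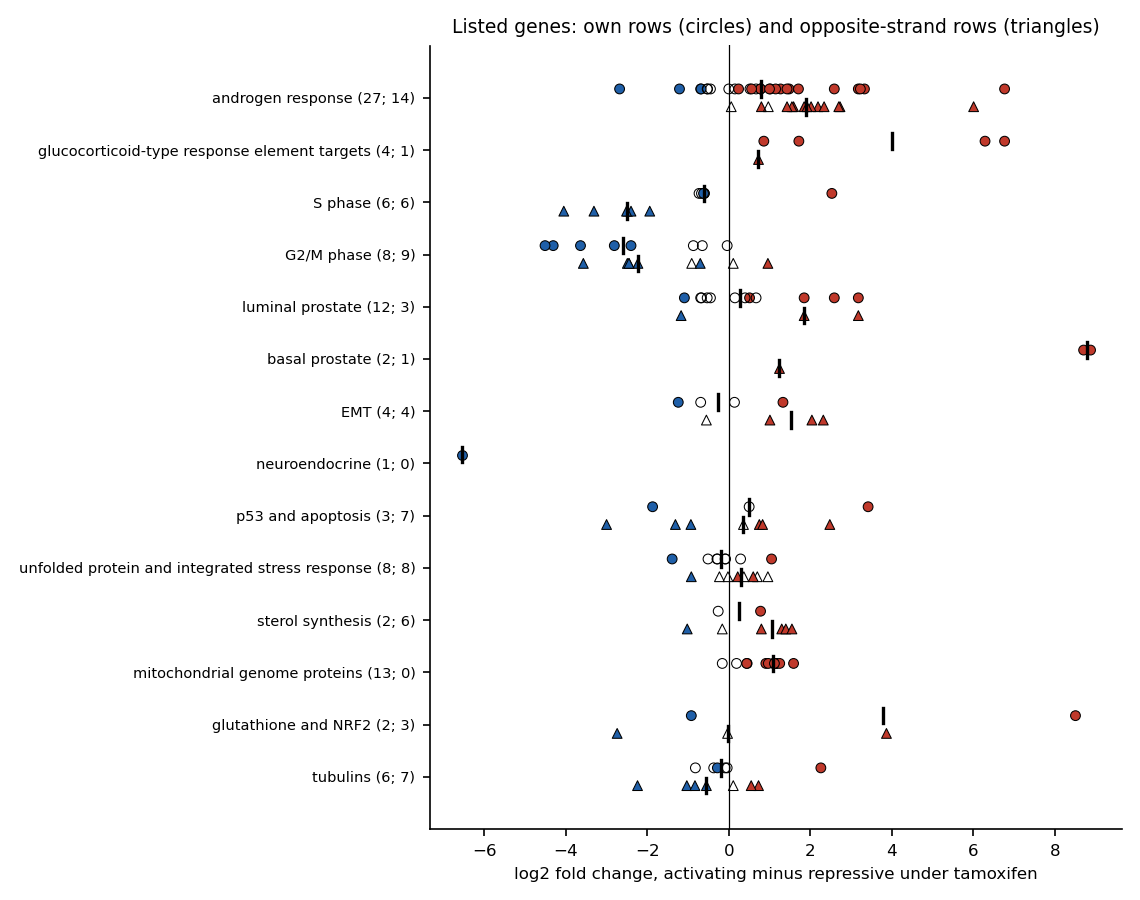
Log2 fold change, activating minus repressive under tamoxifen (horizontal axis), of the tested members of 14 gene lists (circles) and of the genes annotated opposite list members (triangles), with the number of each in brackets. Red and blue mark genes called higher and lower, open symbols genes not called, and ticks medians. Androgen response and mitochondrial genes lie mostly above 0, G2 and M phase genes below 0, and luminal, unfolded protein response and tubulin genes on both sides. Most called G2 and M phase genes were near 0 counts in the activating line, so their direction is no support for the list.

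The remaining lists held few tested genes or moved both ways. Of 32 genes of p53 and apoptosis 3 were tested. TNFRSF10B, the death receptor DR5, opposite RHOBTB2 (0.75), was higher (3.42, adjusted p = 5.11e-09 from edgeR) with 77.4 to 94.9 against 0 to 12.7 normalized counts, and FAS, another death receptor, was lower, with a ratio of 3.76 in favour of the repressive line (95% exact interval 1.89 to 8.29). Of 26 genes of the unfolded protein and integrated stress response, 8 were tested, with the disulfide isomerase PDIA3, opposite ELL3 (-0.23, not called), higher (1.05, adjusted p = 2.62e-10 from edgeR), the transcription factor ATF4 lower (-1.39, adjusted p = 0.0021 from edgeR) and 6 not called. Of 24 genes of sterol synthesis, 2 were tested, 1 was higher and 1 not called, and of the 6 tested neighbours 4 were higher and 1 lower. Of 25 glutathione and NRF2 genes, 2 were tested, GSTM3, higher, and MGST2, lower (-0.92, adjusted p = 0.0374 from edgeR). The MGST2 call was lost without activating replicate 1 or 4 (-0.74 and -0.97) or repressive replicate 1 or 2 (-0.88 and -0.90).

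Of 20 tubulin genes, 6 were tested, TUBA3D, which has near-identical paralogs, was higher (2.26, adjusted p = 1.23e-05 from edgeR) and TUBB6 lower (-0.28, adjusted p = 0.00108 from edgeR). Of the 7 tested neighbours of tubulin genes, 4 were lower and 2 higher, and TUBA1A and TUBA1B share the same neighbour. RP11-386G11.10, opposite TUBA1B, had 49567 to 60036 normalized counts in the activating and 76846 to 82900 in the repressive libraries (-0.55, adjusted p = 3.61e-09 from edgeR), and XXbac-BPG252P9.9, opposite TUBB, was at -0.83 (adjusted p = 1.11e-12 from edgeR). The activating and repressive libraries did not overlap for either. RP11-161H23.5, opposite TUBA1C, was higher (0.73, adjusted p = 2.17e-11 from edgeR) and was named after its value was seen.

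The opposite-strand neighbours were also compared over the whole table. In 760 pairs both genes were tested, and in 200 both were called. The direction was shared in 124 of these and opposed in 76. KRT8 and KRT18, GSTM3 and RP4-735C1.4, and PLEKHG3 and SPTB shared it, whereas PLPP1 and SKIV2L2 did not.

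**Figure D5:**
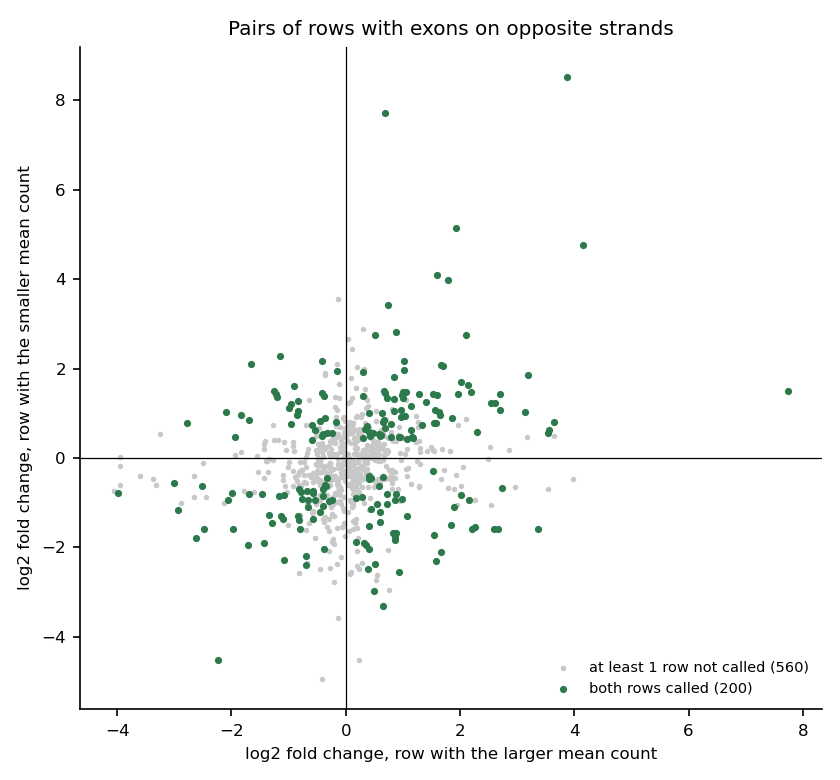
Log2 fold change, activating minus repressive under tamoxifen, of the 760 pairs of tested genes with overlapping exons on opposite strands, with the gene of the larger mean count on the horizontal axis and its neighbour on the vertical axis. Green marks the 200 pairs in which both were called. They lie in the upper right and lower left quadrants for 124 pairs and in the other quadrants for 76.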

How the data were processed

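The authors processed the reads of poly(A)-selected, stranded libraries by an nf-core workflow with salmon 1.9.0 against GRCh37, tested genes with DESeq2 1.28.0, and deposited 1 table of expected counts (salmon's estimated counts, without normalization) for 57773 genes in 32 libraries. Every column was matched to a sample by its name. The annotation release and strand setting were not given in the sources used here. Counts were rounded to whole numbers. With edgeR 4.0.16 and limma 3.58.1 in R 4.3.3, genes were kept by filterByExpr over the 8 groups, scaled by TMM and tested with glmQLFit and glmQLFTest (robust), with Benjamini-Hochberg adjustment at 0.05 over all tested genes. An SE is the size of the log2 fold change over the root of F. Each pair of groups was fitted on its own 8 libraries and the interaction on 16. Alternatives were DESeq2 1.42.0, other filters and scalings, the replicate number as a block and leaving out single libraries. The scripts were tested on simulated data.

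The genes, lists and tests were chosen with earlier results of these data known. Named genes were FKBP5, KLK3, KRT8, NME7, the construct donors, the 10 largest differences each way (called, no overlap, mean of at least 100 counts), the 8 each way without opposite-strand exons (mean of at least 20), the 5 each way with at most 3 counts in 1 group and at least 20 in the other, up to 4 members per list with the smallest p, and the opposite-strand neighbours of all of these. Some genes of this rule are not reported here. Other genes are said to be chosen after their values were seen. Positions and exon overlaps were taken from a GENCODE annotation lifted to GRCh37 (96.1% of genes, 94.1% of counts), whose release may differ from the authors'. Ratios are of summed counts over summed effective library sizes with Clopper-Pearson 95% intervals. Intervals and floors cover counting error only. The depth of 565168 to 791496 counts per library limits genes near 3 counts. Library properties were compared by exact two-sided permutation in Python 3.11.15 (scipy 1.17.1). No 2 replicates agreed within sampling noise (chi-square per gene 1.48 to 32.9).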

Additional observations from a re-analysis of the deposited data

Results flagged for a closer look

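In 12 of 185 groups of 4 libraries examined, 1 library lay apart from the other 3 by Dixon's criterion at the 95% level, where chance gives about 1 in 20. Among the activating tamoxifen libraries, in normalized counts, SMOX was at 1987 in replicate 1 (the others 2186 to 2204) and MGST2 at 6.11 (11.5 to 12.2), ZEB1 was at 10.2 in replicate 2 (26.8 to 28.5), TUBB6 at 1215 in replicate 3 (1045 to 1054), and TEX2 at 9.61 (12.2 in the others) and CCNE2 at 42.3 (24.5 to 26.8) in replicate 4. Among the repressive tamoxifen libraries, replicate 1 had RP11-229P13.23 at 736 (1030 to 1071), CENPN at 56.1 (97.7 to 104) and MRPL51 at 268 (229 to 235), replicate 3 had NCAPD2 at 314 (272 to 276), and replicate 4 had XXbac-BPG252P9.9 at 21162 (23179 to 23392). The share of counts on genes with an opposite-strand exon was 72.8% in activating replicate 3, against 80.3 to 80.8% in the other 3.

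The response to tamoxifen differed between the activating and repressive lines for 1430 genes in the edgeR interaction test, which shares its induced libraries with the comparison above. The difference of responses on the log2 scale was 6.46 for FKBP5 (adjusted p = 1.16e-10 from edgeR), 2.69 for KLK3 (adjusted p = 3.39e-07 from edgeR), 3.18 for KRT8 (adjusted p = 3.73e-14 from edgeR) and -3.33 for NME7 (adjusted p = 8.5e-13 from edgeR).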

How the results depend on the processing

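The 1901 calls became 1550 with DESeq2 (1545 shared in direction), 1914 with DESeq2's size factors, 2068 without a filter and 1923 in a fit of all 32 libraries. They moved further with a mean of at least 20 counts (1255 called, 629 of them higher), among genes without opposite-strand exons (428; 228 higher and 200 lower) and, in split, on library totals without TMM (593 higher and 1472 lower), an alternative chosen after seeing the data. Leaving out 1 library gave 1745 to 1872 calls, 908 to 981 higher and 819 to 891 lower. The vehicle count was 3 without a filter, 0 under the stricter filter, and 1 to 2 with a library left out. On library totals the interaction gave 454 higher and 1100 lower and activating minus neutral 507 and 1271. Interaction calls were 297 without opposite-strand exons and 1330 to 1416 with a library left out. Against the neutral line, calls without opposite-strand exons were 364 (activating) and 26 (repressive), the latter 82 on library totals, and with a library left out 1524 to 1733 and 92 to 171. Library properties without 1 library ranged from 0.305 to 0.398 percentage points for the mitochondrial share, 1.91 to 4.96 for the 10 most abundant genes, -1522 to -1050 for genes with a count, and -2.97 to 0.705 for the opposite-strand share, whose sign turned without activating replicate 3. Replicate numbers pair nothing here: same-numbered libraries deviated with correlations of -0.133, -0.041, 0.01 and -0.13, and with the replicate block 1749 genes were called, and 91 in the repressive against the neutral line.

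Of the 83 named genes called, 76 kept direction and call in every setting in which they could be run (36 of the 99 tested had no opposite-strand exon), the exceptions among those reported being CCNE2, CEBPB, MGST2, ESR1 and PCSK7. Signs turned in genes that were not called: ZEB1 (-0.23 on library totals, -0.07 without repressive replicate 1, up to 0.39 with others left out), CALR (-0.08 on library totals), MVK (0.10 and 0.05 without repressive replicates 3 and 4, down to -0.71), FOXM1 (0.04 to 0.07, as above, down to -0.47) and RP11-110I1.6 (0.03 without activating replicate 2, down to -0.05). The cause was not tested. Most listed genes did not pass the expression filter. The activating and repressive tamoxifen libraries held 565168 to 791496 counts. Of the assigned counts, 80.9% fell on genes with an opposite-strand exon. Whether either kept listed genes from passing was not tested.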

Other observations

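Several further transcripts without an opposite-strand exon were at or near 0 in the repressive line and present in the activating line. They were chosen after their values were seen, from the 30 genes described above. ATOH8, a basic helix-loop-helix transcription factor, had 29 to 43 counts in the activating libraries and 0 in all repressive libraries and all neutral libraries under tamoxifen. SLC25A33, a mitochondrial pyrimidine nucleotide carrier, had 46 to 88 counts against 0 to 1, USP38, a deubiquitinase, 22 to 41 against 0, and CRADD, an adaptor of caspase activation, 51 to 62 against 1 to 2. In the neutral tamoxifen libraries each of these 3 had at most 1 count. SOCS2, a feedback inhibitor of cytokine signalling with an opposite-strand exon, had 42 to 68 counts against 0 to 1, and at most 5 in the neutral line. SLC7A11-AS1, opposite the cystine transporter SLC7A11, was at -2.74 on the log2 scale, activating minus repressive (adjusted p = 2.3e-16 from edgeR).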
